A study of Mus musculus with 8 samples.

Results

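The yolk sac endoderm wells were 243 of the 811 wells that held at least 5000 transcripts, out of 1536 wells measured. They were 77 wells of the 4 libraries labelled as A1 and A2 cells and 166 wells of the 4 libraries labelled as EMP cells. A well was taken when the summed level of 6 endoderm genes (Apoa1, Apoa4, Apoc2, Rbp4, Ttr and Cldn7), divided by its mean over the wells of the same kind of library, was at least 1.5 and exceeded the same ratio for 3 other sets. The other sets held blood cell genes (Coro1a, Lmo2, Rac2, Runx1 and Csf1r), endothelial genes (Plvap, Clec14a, Cldn5, Cdh5 and Kdr) and embryonic globin genes (Hbb-y, Hbb-bh1, Hba-x and Hba-a1). By the same rule 231 wells were blood wells, 90 endothelial wells and 34 erythroid wells, and 213 wells joined no class. The wells were thus chosen by the measured counts of these 20 genes, so levels in endoderm wells are set beside those of other wells as a description, with no test.

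The mice were wild type C57BL/6N, untreated, at embryonic day 9.5, and the tissue was the extraembryonic yolk sac. After staining for CD45 and CD11b, single CD45-positive cells went into 384-well plates. Libraries were made by mCEL-Seq2, in which reverse transcription adds a barcode of the well and a random identifier to the 3' end of each transcript. EMP cells are erythromyeloid progenitors, and A1 and A2 cells are myeloid precursors that derive from them. The labels say that the EMP libraries were prepared in parallel but did not enter the publication. The labels do not say that libraries came from separate embryos, so p-values between libraries measure only the spread between these libraries, which may be technical.

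The visceral endoderm is the epithelium that covers the outside of the mouse yolk sac. Before the placenta and the liver work, it takes up maternal proteins and lipids through megalin and cubilin, degrades them in lysosomes, and secretes lipoproteins, alpha-fetoprotein, retinol carriers and clotting factors toward the embryo. It lies against the blood islands, sends signals to them, and is not itself a source of blood cells.

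Promoters of 3 markers are shown because these genes are among the listed markers of the wells and because HNF4, FOXA and GATA factors, whose levels are given further on, are known regulators of such secretory genes. Each is the 250 bases before the start of the gene in RefSeq on GRCm38.p6, on the plus strand, at chr9:46228380-46228629 for Apoa1, chr9:46240594-46240843 for Apoa4 and chr5:90490464-90490713 for Afp. Capitals mark letters that match a FOXA motif (TGTTTAC or TGTTTGC) or an HNF4 motif (CAAAGTCCA or CAAAGTTCA), on either strand.
Apoa1: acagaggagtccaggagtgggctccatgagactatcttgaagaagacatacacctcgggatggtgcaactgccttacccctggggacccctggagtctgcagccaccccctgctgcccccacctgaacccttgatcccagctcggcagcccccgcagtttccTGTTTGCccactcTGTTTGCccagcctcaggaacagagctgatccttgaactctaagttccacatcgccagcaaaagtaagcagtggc
Apoa4: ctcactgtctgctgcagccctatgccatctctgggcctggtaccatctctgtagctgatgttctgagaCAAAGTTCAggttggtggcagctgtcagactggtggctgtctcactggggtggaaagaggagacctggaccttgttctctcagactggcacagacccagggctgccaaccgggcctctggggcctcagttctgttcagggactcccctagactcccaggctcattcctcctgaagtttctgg
Afp: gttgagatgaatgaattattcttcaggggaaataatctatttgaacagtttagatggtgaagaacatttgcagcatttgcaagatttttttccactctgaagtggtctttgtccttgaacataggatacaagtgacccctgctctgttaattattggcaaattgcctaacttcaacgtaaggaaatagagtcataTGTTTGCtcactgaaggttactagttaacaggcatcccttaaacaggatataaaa
Of the 8 markers, 7 were matched in the promoter table. The FOXA letters stood in 3 of these 7 windows (Afp, Apoa1 and Rbp4) and in 7.29% of 32851 promoters of the same length. The HNF4 letters stood in 1 window (Apoa4) against 0.715%, and the GATA motif AGATAA in 0 against 9.99%. A match describes letters, not binding.

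The cutoff lay within a continuous spread of levels. It stood at 94.7 transcripts of the 6 genes per 10000 in A1/A2 libraries and at 134.8 in EMP libraries, because the mean over wells was lower in A1/A2 libraries (63.1 against 89.9). Within 10% of the cutoff lay 13 A1/A2 and 42 EMP wells. The nearest wells outside had ratios from 1.484 to 1.495 and the nearest inside had ratios from 1.507 to 1.526. A further 40 A1/A2 and 84 EMP wells had the endoderm set as their highest ratio but stayed below the cutoff, at medians of 55.9 and 92.0 per 10000.

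**Figure D1:**
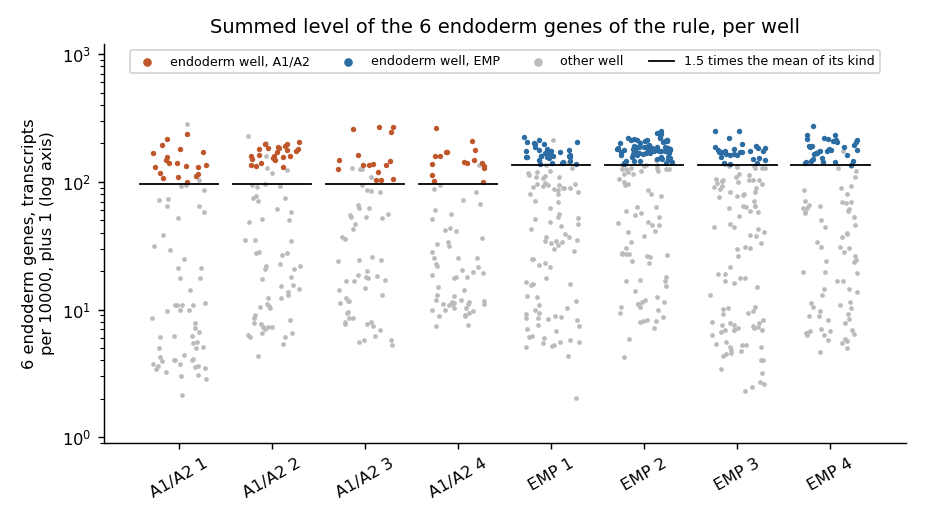
Summed transcripts of the 6 endoderm genes per 10000, plus 1, on a log axis, for each of the 811 wells by library; coloured points are endoderm wells, grey points are other wells, and the black line is the cutoff of each kind of library (94.7 for A1/A2 and 134.8 for EMP). Endoderm wells start at the line in each kind of library, and a grey point above it had a higher ratio for another set.

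Endoderm wells were found in every library. They numbered 20, 24, 16 and 17 in A1/A2 libraries 1 to 4, which is 25.3%, 28.6%, 22.9% and 23.3% of the wells with at least 5000 transcripts. In EMP libraries 1 to 4 they numbered 34, 70, 28 and 34, which is 27.4%, 49.0%, 21.7% and 31.2%. EMP library 2 held the most, and the other 7 libraries lay between 21.7% and 31.2%. The rule divides by a mean within each kind of library and so helps to set these shares, which were not tested. The endoderm wells of a library held between 645088 and 3514404 transcripts in sum, and single wells between 5109 and 283412.

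The 8 libraries used the same set of well barcodes. A barcode held an endoderm well in both libraries of a number 17 times (4, 9, 2 and 2 times for numbers 1 to 4). Of the 146 barcodes that held an endoderm well, 70 did so in 2 or more libraries. Whether transcripts passed between libraries was not tested.

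All 8 markers were abundant in every library. Levels are CPM, counts scaled to a common total, of the summed endoderm wells of a library, and since a transcript is counted once at its 3' end they need no division by gene length. In such sums fewer cells of a type and less RNA per cell cannot be told apart. Afp, alpha-fetoprotein, stood at 6084, 7621, 8505 and 7168 CPM in A1/A2 libraries 1 to 4 and at 6297, 5803, 6192 and 8030 CPM in EMP libraries 1 to 4. Ttr, the carrier of thyroid hormone and of retinol-binding protein, stood at 4684, 5993, 5578 and 5700 CPM and at 5942, 7358, 6393 and 6927 CPM. The 2 kinds of library overlapped for both genes.

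Apoa1, the main protein of high-density lipoprotein, was at 4205 ± 578 CPM (SD, n = 8 libraries) and Rbp4, the retinol carrier of plasma, at 4172 ± 369 CPM. Apoc2, the cofactor of lipoprotein lipase, was at 1479 ± 154 CPM and Apoa4, an apolipoprotein of intestine and yolk sac, at 746 ± 211 CPM. Rhox5, an X-linked homeobox gene, was at 380.3 ± 45.6 CPM and Cldn7, a tight junction claudin, at 198 ± 18.1 CPM. The rule fixed the levels of 6 of these markers, so the label can be checked only on Afp and Rhox5, which it did not use. Between the kinds of library Afp differed by a log2 fold change of 0.12 ± 0.12 (SE, A1/A2 over EMP, adjusted p = 0.551, edgeR) and Rhox5 by 0.02 ± 0.11 (adjusted p = 0.936, edgeR), so neither difference exceeded the spread between libraries.

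Transcripts of the markers were also present in wells of the other classes. For each of the 8 markers, in both kinds of library, the mean level was lowest in blood wells, then rose through endothelial and erythroid wells to endoderm wells. Apoa1 was at 198 CPM in blood wells, 1449 CPM in endothelial wells and 2294 CPM in erythroid wells of the A1/A2 libraries, against 4136 CPM in their endoderm wells. In the EMP libraries it was at 679, 1271 and 2621 CPM, against 4275 CPM. The A1/A2 endothelial wells bear that name by the rule alone. The mean of the endothelial set was 0.20 per 10000 in A1/A2 libraries, against 2.71 in EMP libraries. Endothelial markers summed to 285 to 771 CPM in A1/A2 endothelial wells, which overlapped A1/A2 blood wells (301 to 331 CPM). EMP endothelial wells had 3034 to 4136 CPM. At 5000 transcripts drawn from each well, 52 of 95 A1/A2 blood wells (54.7%, 95% exact interval 44.2 to 65.0) and 88 of 136 EMP blood wells (64.7%, 56.1 to 72.7) still had an Apoa1 transcript, as had all 77 and all 166 endoderm wells. Such intervals cover counting error only. Whether endoderm transcripts in other wells come from free RNA, from cells sorted together or from expression was not tested.

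**Figure D2:**
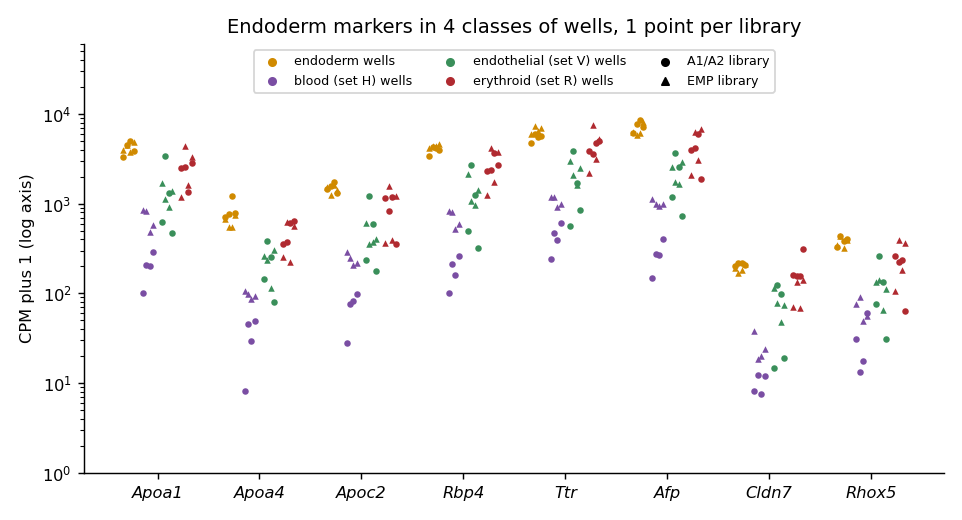
Levels of the 8 markers in CPM plus 1 on a log axis, by class of wells (colours), with 1 point per library (circles A1/A2, triangles EMP). On average endoderm wells are highest for each marker (Apoa1 4205 CPM) and blood wells lowest.

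Secreted proteins were among the most abundant transcripts. Among the 15 most abundant genes, leaving out ribosomal, mitochondrial and unnamed genes, were Afp, Ttr, Apoa1 and Rbp4, and also Apoe (4683 ± 1186 CPM, SD, n = 8), which carries lipids to receptors, the imprinted RNA H19 (4503 ± 1069 CPM) and Slc2a3 (2426 ± 466 CPM), a glucose transporter. The highest was Actb (7320 ± 701 CPM), which all cells use. Genes highest relative to all other wells, at 100 CPM or more, were Apoa4 (3.82 times), Serpina1a (3.67), Apoa1 (3.67), Sec14l2 (3.64), Afp (3.64), Apoc2 (3.62), Rbp4 (3.61) and Apom (3.59). Apoa4, Apoa1, Apoc2 and Rbp4 are genes of the rule, so their place here follows from the choice of wells. Pla2g12b, Trf, Slc13a4, S100g, Fgg, Soat2 and Usp51 followed, between 3.47 and 3.57 times. Serpina1a has near-identical neighbouring copies, so its count is uncertain. Of 1606 genes at 100 CPM or more, 252 were at least 2 times and 0 at least 4 times their level in other wells. The other wells include the 40 A1/A2 and 84 EMP wells with the endoderm set highest but below the cutoff, which lowers these ratios.

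Lipoprotein genes included those of particle assembly. Apom was at 1075 ± 108 CPM, Apob, the core protein of large lipoproteins, at 946 ± 249 CPM, Apoa2 at 714 ± 89.2 CPM and Mttp, which loads lipid onto Apob, at 216 ± 25.3 CPM. Of 14 listed genes of this group 8 stood at 100 CPM or more, and Pltp was listed at 0 in all 8 sums. Among serum proteins, Trf, the iron carrier transferrin, was at 661 ± 81.2 CPM and Spp2 at 541 ± 53.0 CPM, whereas Gc, the vitamin D carrier, was at 10.2 ± 3.06 CPM and Alb, albumin, at 0.452 ± 0.616 CPM. The fibrinogen chains Fgb (528 ± 112 CPM), Fgg (349 ± 63.2 CPM) and Fga (339 ± 46.6 CPM) led the clotting factors.

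The uptake machinery of the tissue was present as well. Cubn, the cubilin receptor, was at 1956 ± 383 CPM, its partner Amn at 344 ± 46.1 CPM, Lrp2, megalin, at 278 ± 64.3 CPM and the adaptor Dab2 at 1423 ± 291 CPM. The lysosomal proteases Ctsl and Ctsb were at 1599 ± 248 and 1164 ± 153 CPM. Of 35 measured transporters and brush border genes 18 stood at 100 CPM or more, among them Slc16a1 (729.7 ± 111 CPM), a lactate carrier, and Ezr (644 ± 87.0 CPM), the ezrin of microvilli. Epithelial genes included Krt18 (433 ± 48.6 CPM), Krt8 (358 ± 27.9 CPM) and Cdh1, E-cadherin (245 ± 45.8 CPM), genes that other epithelia use as well.

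Endoderm transcription factors were lower in level. Maf was at 342 ± 40.1 CPM, Hnf4a at 233 ± 33.9 CPM, Gata4 at 69.9 ± 17.4 CPM and Foxa2 at 51.3 ± 9.11 CPM. Sox17 and Sox7, factors of early endoderm, were at 4.32 ± 3.04 and 2.46 ± 1.44 CPM. Among signals and matrix proteins Igf2 was at 1243 ± 311 CPM, Fn1, fibronectin, at 403 ± 44.9 CPM, Ihh, which signals to the mesoderm, at 51.7 ± 15.8 CPM and Vegfa at 48.0 ± 9.89 CPM. Kitl, the ligand of the Kit receptor, was at 33.3 ± 4.75 CPM and Csf1, a ligand of the Csf1r receptor, at 2.11 ± 2.93 CPM. Of 24 measured genes of that list 7 were over 2 times their level in other wells.

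Within a library and at 5000 transcripts per well, most genes differed between endoderm wells little more than counting gives. Each well was thinned to 5000 transcripts, and the variance between wells of a library was divided by the mean, a ratio that is 1 where only counting varies. Over 681 genes with a mean of at least 1 transcript the median ratio was 1.12, and 39 genes (5.73%) were above 2. At low means, which thinning gives, the ratio stays near 1 even where wells differ, so it does not show that the wells are alike. The rule also bounds the spread of its 6 endoderm genes. In blood wells 54 of 705 genes (7.66%) were above 2 and in endothelial wells 139 of 626 (22.2%), as a description of classes of unequal size. The endothelial class joins A1/A2 wells low in endothelial markers with EMP wells. Apoa1, Ttr, Afp, Rbp4, Apoe, H19 and Cubn were found in all 243 wells at this depth.

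Few genes varied more. Lars2, a mitochondrial leucyl-tRNA synthetase, had a ratio of 8.45, Tmsb4x, an actin-binding peptide high in blood cells, 5.76, and Afp 5.28. Afp ran from 12 to 124 transcripts per well with a median of 32. Actb followed at 3.68, and then the imprinted genes Igf2 (3.02), H19 (2.79), Cdkn1c (2.59) and Meg3 (2.40), with S100g, a calcium-binding protein, at 2.62 and Apoe at 2.47. Igf2 ran from 0 to 45 transcripts with a median of 6, and H19 from 4 to 66 with a median of 24. Macrophage markers summed to a median of 1 transcript per well and ran from 0 to 29. Over the 243 wells, which share libraries and a fixed total, the rank correlation of Ttr with Rbp4 was 0.369 and that of Afp with H19 was 0.248, and weak values in sparse counts are no finding.

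**Figure D3:**
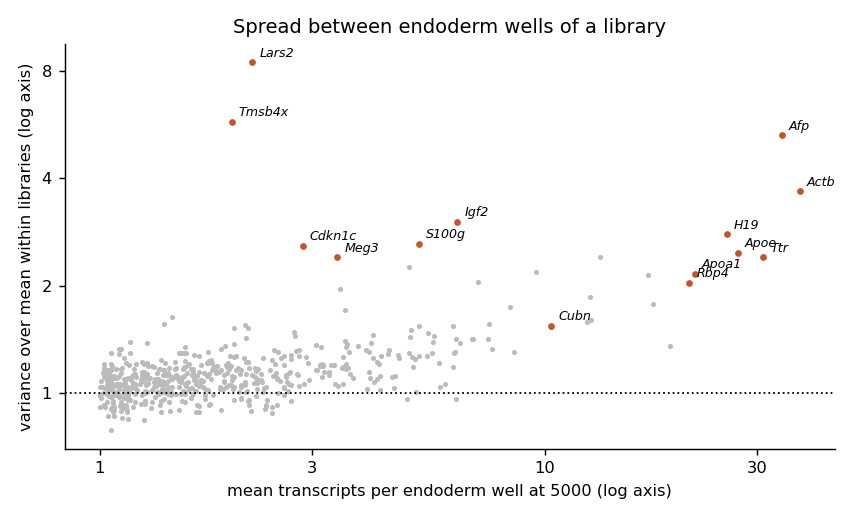
Variance over mean between endoderm wells of a library against mean transcripts per well, both on log axes, at 5000 transcripts per well, for named genes with a mean of at least 1; the dotted line at 1 is the ratio counting alone gives. Most genes lie near the line (median 1.12), and Lars2 (8.45), Tmsb4x (5.76) and Afp (5.28) lie farthest above it.

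Cell cycle transcripts were found in every endoderm well. At 5000 transcripts, 20 listed genes of S phase gave a median of 9 transcripts per well (range 2 to 25) and 21 listed genes of G2 and M phase a median of 14 (range 3 to 34). Blood wells had medians of 17 for both. The summed G2 and M genes had a variance over mean of 1.59 in endoderm wells, 2.80 in blood wells and 6.56 in endothelial wells, where they ran from 0 to 50 transcripts. Mki67, a proliferation marker, was at 231 ± 19.3 CPM in the endoderm sums.

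Blood cell genes separated the endoderm wells of the 2 kinds of library. The comparison sets the same class of wells from 2 sorts side by side, and sums of endoderm wells per library were fitted with edgeR over 8896 genes, leaving out the 20 genes of the rule. In A1/A2 libraries 641 genes were higher (7.21% of those tested) and 388 lower (4.36%) at a Benjamini-Hochberg adjusted p under 0.05, and 266 and 18 of these by 2-fold or more. The libraries of the kinds did not overlap for 1390 genes (15.6%). Leaving out a single library moved the counts by over 1.5 times in 4 cases: 400 higher and 163 lower without A1/A2 library 4, 243 lower without A1/A2 library 1, 632 lower without A1/A2 library 2 and 220 lower without EMP library 2.

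Tyrobp, an adaptor of myeloid receptors, stood at 91.6, 31.7, 71.8 and 67.6 CPM in A1/A2 libraries 1 to 4 and at 4.51, 3.70, 1.22 and 1.13 CPM in EMP libraries 1 to 4. The groups did not overlap, and the log2 fold change was 4.39 ± 0.44 (SE, adjusted p = 1.07e-04, edgeR). Cd53, a leukocyte tetraspanin, stood at 62.1, 39.0, 50.7 and 86.4 CPM and at 7.90, 6.26, 3.66 and 3.96 CPM (3.35 ± 0.28, adjusted p = 3.16e-08, edgeR). Both were higher in the blood wells of the A1/A2 libraries, at 249 CPM and 162 CPM. Tyrobp and Cd53 reached the filter on low counts through the A1/A2 libraries, where they are high. Their tests thus lend no support of their own.

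Most other named genes that rose are known from myeloid cells or their progenitors. C1qb, a chain of complement C1q (log2 fold change 4.19 ± 0.81), Ncf1, a subunit of the phagocyte oxidase (3.26 ± 0.66), Arhgdib, a regulator of small GTPases in leukocytes (2.83 ± 0.33), Fcer1g, the common gamma chain of Fc receptors (2.71 ± 0.35), Laptm5, a lysosomal protein of blood cells (2.55 ± 0.22), and Ly6e (2.50 ± 0.17) passed, with adjusted p from 8.94e-12 to 0.0268 (edgeR). Lpl, lipoprotein lipase, rose by 3.54 ± 0.77 (adjusted p = 0.0352), Prtn3, proteinase 3 of granules, by 3.51 ± 0.83 (adjusted p = 0.0447), Ccnd2, cyclin D2, by 3.17 ± 0.65 (adjusted p = 0.0295) and Tmsb4x by 2.46 ± 0.43 (adjusted p = 0.0165, all edgeR). C1qb, Ncf1, Arhgdib and Prtn3 also reached the filter on low counts through the A1/A2 libraries, so their tests lend no support of their own. In A1/A2 library 1 Lpl was at 551 CPM (others 88.3 to 143) and Prtn3 at 152 CPM (others 28.4 to 32.5). Lpl, Prtn3, Ncf1 and Ccnd2 no longer passed without A1/A2 library 4, nor without any single EMP library. C1qb was lost without A1/A2 library 3 or EMP library 2, 3 or 4, and Tmsb4x without A1/A2 library 4 or EMP library 2 or 3.

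**Figure D4:**
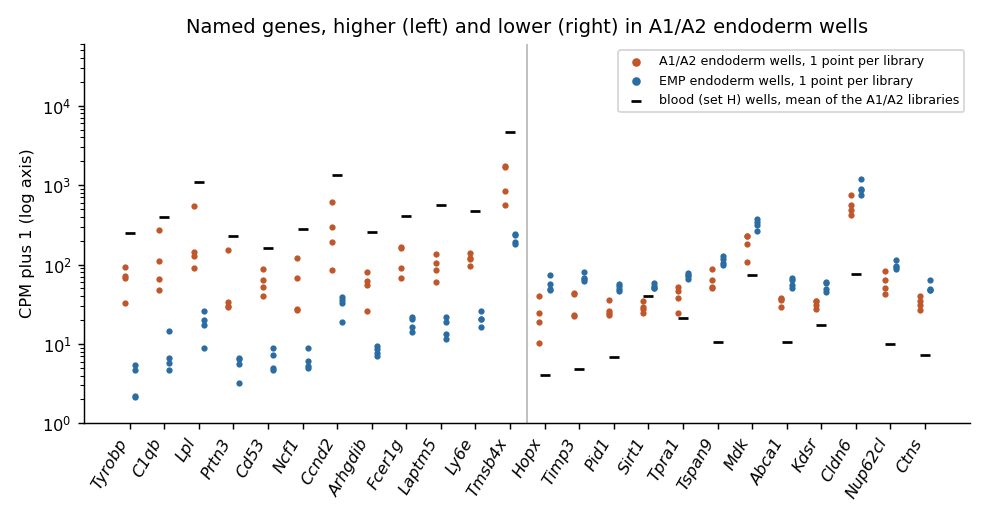
Levels of the 24 named genes in CPM plus 1 on a log axis, with 1 point per library, for A1/A2 and EMP endoderm wells; the black dash is the mean in blood wells of the A1/A2 libraries. For the 12 genes that were higher (such as Tyrobp) and the 12 that were lower (such as Hopx) the kinds of library do not overlap, which the choice of these genes required.

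Of 23 measured macrophage markers 15 reached the filter on low counts, and 12 of these were higher and 0 lower. Many of them, such as Tyrobp, Itgam, Cx3cr1, Cybb and Spi1, reached the filter through the A1/A2 libraries alone, where they are high, so this count lends no support of its own. The same holds for the granulocyte markers, of which 4 of 13 measured were tested and called higher (Prtn3, Cxcr2, Lyz1 and Mpo), and Lyz1 has a near-identical copy. Of 6 tested blood progenitor markers 1 was lower, Mycn, beside 4.36% lower over all genes tested. Mycn stood at 9.59 ± 2.16 CPM in A1/A2 and 31.6 ± 10.9 CPM in EMP libraries (SD, n = 4 each, log2 fold change -1.72 ± 0.28, adjusted p = 1.02e-04, edgeR). The macrophage markers summed to between 528 and 1165 CPM in A1/A2 endoderm wells, between 146 and 292 CPM in EMP endoderm wells and between 3272 and 4015 CPM in A1/A2 blood wells, and 0 of the 23 measured were at 0 in all endoderm sums. Of the 641 higher genes, 534 (83.3%) had a higher mean in A1/A2 blood wells than in A1/A2 endoderm wells, against 52.9% of all genes tested.

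The genes of the sort are described next. Ptprc, Itgam and Cx3cr1 reached the filter on low counts through the A1/A2 libraries alone, where they are high. Their tests thus lend no support of their own. Ptprc, which encodes CD45, was at 26.4, 25.8, 41.8 and 38.5 CPM in A1/A2 endoderm wells and at 1.69, 4.27, 0.610 and 3.96 CPM in EMP endoderm wells (log2 fold change 3.41 ± 0.33, adjusted p = 3.24e-08, edgeR). At 5000 transcripts per well a Ptprc transcript was found in 6 of 77 A1/A2 endoderm wells (7.79%, 95% exact interval 2.91 to 16.2) and in 2 of 166 EMP endoderm wells (1.20%, 0.146 to 4.28). In blood wells it was found in 51 of 95 (53.7%) and 16 of 136 (11.8%). Median totals before thinning were 36880 and 39550 transcripts in the endoderm wells and 41650 and 26510 in the blood wells.

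Itgam, which encodes CD11b, was higher by 2.88 ± 0.40 (adjusted p = 1.45e-05, edgeR) and Cx3cr1, the fractalkine receptor, by 4.67 ± 0.72 (adjusted p = 0.00701, edgeR). Kit, the receptor that marks the EMP, was under the level needed for the test, at 4.65, 1.47, 2.98 and 2.56 CPM in A1/A2 and 9.59, 6.55, 24.4 and 10.8 CPM in EMP endoderm wells. Csf1r, a gene of the rule, was at 123, 64.1, 92.8 and 103 CPM and at 5.08, 14.2, 9.14 and 10.8 CPM.

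Blood transcripts could enter endoderm wells to different extents in the 2 kinds of library. The rule divides the blood set by a mean of 7.79 per 10000 in A1/A2 and of 3.18 in EMP libraries, and 14 of 77 A1/A2 and 6 of 166 EMP endoderm wells had a second set at a ratio of 1 or more. Leaving out every well above 1 blood set transcript per 10000 kept 40 A1/A2 and 146 EMP wells, and A1/A2 library 4, with 3 such wells, was dropped from the fit. In these wells, called low in blood transcripts from here on, 96 genes were higher (1.11% of 8668 tested) and 24 lower (0.277%), together 1.38%, and 92 and 20 of them were among the calls on all wells. C1qb (log2 fold change 3.15), Cd53 (2.75), Fcer1g (2.03), Ly6e (1.79) and Lpl (1.41) passed there too, while Ccnd2 (0.65), Tmsb4x (0.85) and Laptm5 (1.30) did not. Tyrobp, Ncf1, Arhgdib and Prtn3 were under the level tested there. With 1 cutoff for both kinds of library 390 genes were higher and 189 lower. The part of blood cell RNA and of cells sorted together in the higher genes was not tested.

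Genes of the endoderm itself were among those lower in A1/A2 libraries. Of the 388 lower genes, 220 (56.7%) were over 2 times higher in A1/A2 endoderm wells than in A1/A2 blood wells, against 20.8% of all genes tested. The cutoff for endoderm wells was 134.8 per 10000 in EMP and 94.7 in A1/A2 libraries. With 1 cutoff for both kinds of library 189 genes were lower. Hopx, a homeodomain-only protein, stood at 9.30, 39.8, 23.9 and 17.9 CPM in A1/A2 and at 55.9, 47.0, 72.0 and 48.7 CPM in EMP libraries, without overlap (log2 fold change -1.22 ± 0.27, adjusted p = 0.00961, edgeR). Timp3, an inhibitor of matrix proteases (-1.03 ± 0.18), Pid1 (-0.96 ± 0.18), the deacetylase Sirt1 (-0.91 ± 0.17), Tpra1 (-0.89 ± 0.17), the tetraspanin Tspan9 (-0.85 ± 0.15) and Abca1, which exports cholesterol to apolipoproteins (-0.81 ± 0.17), passed with adjusted p from 2.13e-04 to 0.00131 (edgeR). The growth factor Mdk (-0.83 ± 0.20), Kdsr, an enzyme of sphingolipid synthesis (-0.79 ± 0.17), the claudin Cldn6 (-0.78 ± 0.16), Nup62cl (-0.72 ± 0.15) and Ctns, the lysosomal cystine exporter (-0.72 ± 0.18), passed with adjusted p from 0.00184 to 0.0236 (edgeR). In wells low in blood transcripts Hopx (-0.98), Pid1 (-0.88), Sirt1 (-0.98), Kdsr (-0.91) and Mdk (-0.69) passed and the other 7 did not, with log2 fold changes from -0.79 to -0.46.

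Among secretory genes 1 abundant apolipoprotein changed. Apoe was at 3336, 4481, 3143 and 3778 CPM in A1/A2 libraries and at 5212, 6423, 5506 and 5583 CPM in EMP libraries. Every A1/A2 value was below every EMP value, and the log2 fold change was -0.67 ± 0.12 (SE, adjusted p = 2.13e-04, edgeR), with -0.56 in wells low in blood transcripts, where it also passed. Mean Apoe was also lower in A1/A2 than in EMP libraries in blood wells (636 and 1588 CPM), endothelial wells (2252 and 2721 CPM) and erythroid wells (3026 and 4107 CPM). The A1/A2 endothelial wells were low in endothelial markers, as given above. Apoc1, a small apolipoprotein, was higher, at 48.3 ± 11.5 against 27.5 ± 4.69 CPM (0.77 ± 0.20, adjusted p = 0.00981, edgeR), and did not pass in wells low in blood transcripts. The other 7 of 9 tested genes of the lipoprotein group did not pass. Of 10 tested serum proteins 1 was lower (Serpinf2, antiplasmin, -0.50 ± 0.13) and of 11 tested clotting factors 1 was lower (Fgb, -0.55 ± 0.11), with no member higher. Over all genes tested 4.36% were lower and 7.21% higher. Serpinf2 did not pass in wells low in blood transcripts. Median log2 fold changes of these 3 lists lay at -0.26, -0.27 and -0.30, against 0.004 over all genes tested.

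Some uptake and transport genes passed in each direction, and their counts are set against 4.36% lower and 7.21% higher over all genes tested. Of 14 tested endocytic genes Lrp2 (-0.47 ± 0.14), Dab2 (-0.44 ± 0.12) and Cubn (-0.42 ± 0.12) fell and Lrp1, a receptor that macrophages also use, rose (0.93 ± 0.21). Of 30 tested transporters and brush border genes 7 fell: the glucose transporters Slc2a3 (-0.46 ± 0.11) and Slc2a2 (-0.33 ± 0.11), the amino acid transporter chain Slc3a2 (-0.56 ± 0.11), the zinc importer Slc39a4 (-0.62 ± 0.11), the phosphate transporter Slc34a2 (-0.70 ± 0.21), Fxyd2 (-0.39 ± 0.11) and the channel Aqp8 (-0.66 ± 0.17). Slc9a3r1, a scaffold of microvilli (0.35 ± 0.12), and Slc16a3, a lactate exporter that reached the filter through the A1/A2 libraries (2.68 ± 0.49), rose, a share near that of all genes. In wells low in blood transcripts Slc3a2 (-0.48) and Aqp8 (-0.86) passed, and Lrp2, Dab2, Cubn, Slc2a3, Slc2a2 and Slc39a4 did not, with log2 fold changes from -0.44 to -0.14. With 1 cutoff for both kinds of library Lrp2, Dab2, Cubn, Slc2a3, Slc2a2 and Fxyd2 lost the call, and Slc3a2 and Slc39a4 kept it. Of 23 tested lysosomal genes Ctsh, Ctsl, Lamp1 and Atp6v1a were lower and Ctsz and Psap higher. Ctsh, Ctsl, Lamp1, Atp6v1a and Ctsz did not pass in wells low in blood transcripts. Ctsh, Ctsl and Atp6v1a also lost the call with 1 cutoff for both kinds of library, and Ctsz kept its call in 6 of 19 alternatives.

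**Figure D5:**
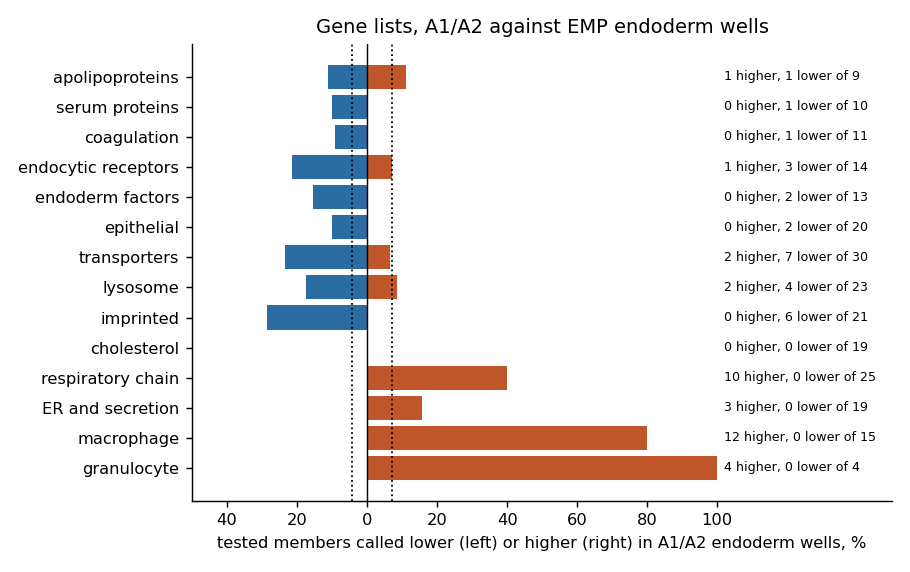
Share of the tested members of each list called lower (left) or higher (right) in A1/A2 endoderm wells, in percent, with the counts at the right; the dotted lines are the shares over all genes tested (4.36% lower and 7.21% higher). Macrophage (12 of 15), granulocyte (4 of 4) and respiratory chain (10 of 25) lists lie to the right, where the filter helped to set the first 2, and imprinted genes (6 of 21) lie to the left.

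Imprinted genes known from extraembryonic tissue fell in 6 of 21 tested cases and rose in 0, against 4.36% lower and 7.21% higher over all genes tested. The direction is not particular to endoderm wells. The mean sum of the list was 1132.5 CPM in A1/A2 and 3747 CPM in EMP blood wells. In endothelial wells, of which those of A1/A2 libraries were low in endothelial markers, it was 4617 and 12577 CPM. In erythroid wells it was 8486 and 10305 CPM. H19 was at 2722, 4791, 3592 and 3707 CPM in A1/A2 libraries and at 4937, 6020, 5194 and 5058 CPM in EMP libraries (-0.56 ± 0.13, adjusted p = 0.00380, edgeR), without overlap. Igf2, the growth factor of the neighbouring locus, was at 674, 1226, 1031 and 1057 CPM and at 1600, 1414, 1560 and 1379 CPM (-0.62 ± 0.13, adjusted p = 0.00242, edgeR), also without overlap. Phlda2 (-0.59 ± 0.13), Igf2r (-0.48 ± 0.12), Sgce (-0.64 ± 0.19) and Impact (-0.35 ± 0.12) were the other 4. In wells low in blood transcripts Igf2 passed (-0.42) and H19 (-0.37), Phlda2, Igf2r, Sgce and Impact did not. Igf2r and Impact lost the call with 1 cutoff for both kinds of library, and H19, Igf2 and Phlda2 kept it. Impact kept its call in 6 of 19 alternatives.

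Of 13 tested endoderm factors Hnf4a (-0.36 ± 0.11, adjusted p = 0.0309) and Gata4 (-0.58 ± 0.15, adjusted p = 0.00889, edgeR) were lower and 0 higher. This count and the counts of lower genes that follow are small and stand beside 4.36% lower over all genes tested. Of 20 tested epithelial genes Cdh1 (-0.48 ± 0.11) and Cldn6 were lower, and of 7 tested ligands and matrix genes Ihh (-0.59 ± 0.18) and Igf2. Hnf4a, Gata4, Cdh1 and Ihh did not pass in wells low in blood transcripts, with log2 fold changes from -0.61 to -0.11. Hnf4a, Cdh1 and Ihh also lost the call with 1 cutoff for both kinds of library. Of 19 tested genes of cholesterol synthesis, 21 of G2 and M phase and 5 of the retinoid route, 0 passed. In the lists of S phase (Pcna), lipid metabolism (Fabp5), iron and heme (Ftl1, a ferritin chain) and the glycolytic route (Gapdh) 1 gene each was higher, which is near the 7.21% over all genes tested. Of 16 tested genes of lipid metabolism Acadm and Scd2 were lower, and neither passed in wells low in blood transcripts. Of 19 genes of the secretory route Hsp90b1, Sdf2l1 and Ssr4 were higher, and all 3 lost the call in wells low in blood transcripts and in most other alternatives.

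Respiratory chain genes rose in 10 of 25 tested cases and fell in 0, with a median of 0.28, against 7.21% higher and 4.36% lower over all genes tested. Cox7a2 rose by 0.75 ± 0.13, Atp5j2 by 0.66 ± 0.12, Cox4i1 by 0.58 ± 0.12 and Uqcrh by 0.55 ± 0.11 (adjusted p from 1.66e-04 to 0.00234, edgeR), and these 4 passed also in wells low in blood transcripts (0.72, 0.64, 0.54 and 0.63). The other 6 (Cox7b, Ndufa2, Ndufb7, Ndufb9, Uqcr11 and Atp5l) did not, with log2 fold changes from 0.28 to 0.68. With wells thinned to 5000 transcripts Cox7a2, Cox4i1 and Uqcrh lost the call and Atp5j2 kept it. Ribosomal protein genes made up 76 of the 641 higher genes and unnamed predicted genes 94. Both kinds of gene have many near-identical copies, so their counts are uncertain.

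Mitochondrial and ribosomal shares lay apart between the kinds of library. Transcripts of the mitochondrial genome made up 19.2% to 22.5% of A1/A2 endoderm transcripts (20.4% ± 1.46, SD, n = 4) and 23.6% to 26.2% of EMP endoderm transcripts (25.1% ± 1.20, SD, n = 4). Ribosomal protein transcripts made up 8.09%, 6.30%, 6.90% and 7.78% and 5.30%, 5.18%, 5.01% and 5.43%. Over all endoderm wells neither measure overlapped, and each had an exact two-sided permutation p of 0.0286, the smallest that 70 assignments of 4 against 4 libraries allow, which became 0.0571 after adjustment over 4 values and does not pass 0.05. Without wells that had a second set at a ratio of 1 or more, the mitochondrial difference shrank from -4.71 to -2.99 percentage points and the ranges overlapped (19.3% to 26.0% against 23.7% to 26.5%, exact permutation p = 0.143), and the ribosomal difference shrank from 2.04 to 1.33. The part of these shares in the gene calls was not tested.

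Median transcripts per endoderm well were 39475 ± 17110 in A1/A2 and 43840 ± 8077 in EMP libraries (SD, n = 4 each, exact permutation p = 0.657). Median genes per endoderm well at 5000 transcripts were 2108 ± 42.9 and 2099 ± 32.3 (exact permutation p = 0.743). Neither difference exceeded the spread between libraries.

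Markers of other cell types near the yolk sac stood at unequal levels in endoderm wells. Endothelial markers summed to 64.1 to 95.7 CPM in A1/A2 and 96.8 to 188 CPM in EMP endoderm wells. In endothelial wells they summed to 285 to 771 CPM in A1/A2 and 3034 to 4136 CPM in EMP libraries. Lymphoid markers summed to at most 35.7 CPM in endoderm wells. Erythroid markers summed to 329 to 1619 and 511 to 807 CPM, against 12873 to 89808 CPM in A1/A2 erythroid wells. Mesenchyme markers reached 929 CPM in 1 EMP library and stayed at or under 178 CPM in the A1/A2 libraries. Of the parietal endoderm markers, which summed to 1160 to 1624 and 1682 to 1822 CPM, Sparc (721 ± 159 CPM) and Col4a1 (341 ± 44.4 CPM) are genes that many tissues use. These markers summed to 224 to 363 CPM in A1/A2 and 526 to 765 CPM in EMP blood wells, and to 2071 to 2924 CPM in EMP endothelial wells. Mean sums of trophoblast markers were 136 and 156 CPM in endoderm wells, 16.6 and 27.9 CPM in blood wells and 117 and 98.0 CPM in erythroid wells.

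Xist and Y-linked transcripts were both found among endoderm wells, and many wells held both. Xist is transcribed from the inactive X of female cells and overlaps its antisense partner Tsix, and Ddx3y, Eif2s3y, Kdm5d and Uty lie on the Y of male cells. Of 243 endoderm wells 72 (29.6%) had at least 1 transcript of each kind, 89 had Xist alone and 55 Y-linked genes alone. Among wells with at least 50000 transcripts 51 of 98 endoderm wells (52.0%) and 18 of 48 blood wells (37.5%) had both. So had 5 of 6 endothelial wells (83.3%) and 6 of 13 erythroid wells (46.2%) at that depth. With at least 2 transcripts of each kind required, 40 of 243 endoderm wells (16.5%) and 11 of 231 blood wells (4.76%) had both. In the other classes these were 8 of 90 endothelial wells (8.89%) and 5 of 34 erythroid wells (14.7%). After thinning to 5000 transcripts 7 endoderm wells (2.88%), 1 blood well (0.433%), 4 endothelial wells (4.44%) and 0 erythroid wells had both. The source of the second kind of transcript was not tested.

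Endoderm wells with 2 or more Xist transcripts and none from the Y (78 wells) were set against wells with the reverse (41 wells). The 5 libraries with at least 3 wells of each were compared by edgeR with library as a block, and 0 of 4868 genes passed (0.0%). At an unadjusted p under 0.05 there were 193 genes (3.96%), and DESeq2 gave 0 calls as well. Without libraries numbered 2 there were 0 higher and 3 lower genes, and without those numbered 3 there were 2 and 1. Of the 4 tested genes known to escape X inactivation, Ddx3x had a log2 fold change of 0.26 ± 0.10 (Xist over Y wells), Eif2s3x 0.34 ± 0.14, Pbdc1 0.20 ± 0.23 and Kdm5c -0.26 ± 0.21, and 0 passed (adjusted p = 0.99 each, edgeR). Rian, an imprinted RNA, had the smallest adjusted p, 0.643 (edgeR), at 0.49 ± 0.13.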

How the data were processed

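Single cells of 8 libraries (4 labelled A1/A2 and 4 EMP) were measured by mCEL-Seq2. The deposited tables hold estimated transcript counts per gene and well, that is, counts of random identifiers that the authors corrected for identifiers drawn more than once, per the labels' protocols and the values, which are not whole. BWA 0.6.2-r126 and Seurat are named in the submitters' processing notes, and the genome build is not given in the sources used here. A deposited table of the whole series gives the same expected counts for 689 wells, among them all 77 A1/A2 endoderm wells, with a largest difference of 0.

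Wells under 5000 transcripts were left out, and doublets were not called. Counts of the endoderm wells of each library were summed, rounded to whole numbers and tested with edgeR 4.0.16 (TMM, filterByExpr, robust quasi-likelihood test) in R 4.3.3, and p-values were adjusted over all genes tested by the Benjamini-Hochberg method, at 5%. Log2 fold changes are A1/A2 over EMP, and SE was taken as the fold change over the root of the F statistic. Levels are CPM of the summed counts. A sum needed 5 wells, and 3 of each kind for the Xist comparison. Quality values were tested by exact permutation over libraries, two-sided. Levels per well, spread and detection used wells thinned to 5000 transcripts, and intervals are exact (Clopper-Pearson). DESeq2 1.42.0 and the alternatives given in the closing section were also run.

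Members, gene lists and rules were chosen with earlier results of these data known. Named genes are, per direction, the 12 called genes that changed most, with libraries that do not overlap and at least 50 CPM in the higher kind; the 15 most abundant genes; the 15 highest relative to other wells; the sort genes; and per list the 4 most abundant members and the 3 with the smallest p. Other list members were named after their values were seen. On data simulated for the comparison of kinds over 8929 genes, 61.2% of genes changed 2-fold and 97.8% of genes changed 4-fold were recovered, with 6 false calls among 155. The simulation gave all genes the same dispersion and held no unequal cutoff and no blood transcripts, so its false calls do not carry over to the data. Results for some items withheld from this text are not reported here.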

Additional observations from a re-analysis of the deposited data

Results flagged for a closer look

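In 4 of the 74 groups of 4 libraries that were checked, a single library stood farther from the others than Dixon's 95% limit for the gap over the range, where chance flags about 1 in 20 groups. Lpl was at 551 CPM in the endoderm wells of A1/A2 library 1 and at 88.3 to 143 CPM in the other A1/A2 libraries (gap over range 0.882). Prtn3 was at 152 CPM in the same library and at 28.4 to 32.5 CPM in the others (0.967). Apoa4 was at 1220 CPM in A1/A2 library 3 and at 701 to 776 CPM in the others (0.855). Ctns was at 62.7 CPM in EMP library 2 and at 46.3 to 48.7 CPM in the other EMP libraries (0.854).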

How the results depend on the processing

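The 641 genes higher in A1/A2 endoderm wells became 390 with ratios taken over both kinds of library, 88 with wells thinned to 5000 transcripts, 381 without deep wells, 334 without wells that had a second set at a ratio of 1 or more, and 96 in wells with at most 1 blood set transcript per 10000, a setting chosen after seeing the data. They ranged from 400 to 889 when each library was left out in turn. The 388 lower genes became 719 at a ratio of 1 or more, 662 with no filter on low counts, 189, 25, 193, 160 and 24 under those 5 settings in the same order, and 163 to 632 with a library left out. The thinned wells allowed 2128 tested genes. DESeq2 gave 545 and 262, RLE normalization 628 and 408, and wells of 1000 or more transcripts 673 and 424. The replicate block gave 762 and 490. Both kinds of library carry the numbers 1 to 4 in their titles, and the main fit and the permutation tests used no pairing by number. Deviations of same-numbered libraries correlated weakly (-0.0029, 0.171, -0.0384 and 0.0716). With 4 libraries per kind these values cannot show whether the numbers pair the libraries. Over 100 named genes and their alternatives 1429 values kept the call, 390 lost it and 0 changed direction. Over all 1029 calls, 16 had the other sign with thinned wells and 23 in wells with at most 1 blood set transcript per 10000, and 0 under the other alternatives. At a ratio of 3 or more 13 wells remained, 12 of A1/A2 and 1 of EMP libraries, and the comparisons could not be fitted.

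The Xist comparison gave 2 higher genes with no filter on low counts, 0 to 2 higher and 0 to 3 lower with a library number left out, and 0 without the replicate block. With wells of 1000 or more transcripts the difference in median total was -19552 (exact permutation, adjusted p = 0.0381), in mitochondrial share -4.65 percentage points (0.0381) and in ribosomal share 2.03 (0.0381). With a library left out the difference in median total ran from -9307 to 1799 and turned positive without A1/A2 library 1, and that in median genes ran from -10.2 to 24.5 and turned negative in some. The cause was not tested. Numbers of endoderm wells moved to 95 and 209 at a ratio of 1 or more, 112 and 189 at 1000 or more transcripts, and 63 and 160 without wells that had a second set.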
